A study of Mus musculus with 8 samples.

Results

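Elavl1, Elavl2, Fmr1, Fxr1, Msi2, Igf2bp2, Igf2bp3, Pum2 and Celf1 encode RNA-binding proteins that act on mRNA stability, translation or transport, and were taken by name as regulators other than Rbpms2 itself. These 9 genes are 9 of the 21959 genes in the expression table. RNA was sequenced from oocytes of mouse ovaries at postnatal day 1 in 8 libraries, 4 from wild-type mice and 4 from mice in which Rbpms2, itself an RNA-binding protein gene, had been knocked out. Each library came from 1 tube of 5 to 10 putative primordial oocytes, picked with a mouth pipette after collagenase and trypsin digestion of the ovary, and its mRNA was amplified for 18 cycles. The labels do not say which part of Rbpms2 was deleted or which strain was used, and do not tie a tube to an animal, so the spread behind every p-value is that of tubes and may be technical.

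The ELAVL (Hu) proteins bind AU-rich stretches, mainly in the 3′ untranslated region (3′ UTR), and Elavl1 (HuR) is made in most tissues while Elavl2 (HuB) is known from neurons and germ cells. Fmr1 encodes FMRP, the fragile X protein, an RNA-binding regulator of translation, and Fxr1 and Fxr2 encode its relatives. The IGF2BP proteins protect bound mRNAs, Pumilio proteins such as Pum2 repress mRNAs through a short 3′ UTR motif, CELF proteins bind GU-rich elements, and Musashi proteins (Msi1, Msi2) regulate translation in stem and germ cells. Oocytes depend on such proteins because they store mRNA for later use.

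Levels are FPKM, fragments normalised to exon length and to the counted reads of the library, and were compared with limma on log2(FPKM + 1), with Benjamini-Hochberg adjustment over the 11235 genes tested and a gene called when its adjusted p was under 0.05. All 9 genes passed the filter on low values. Between 8132790 and 14302406 reads per library could be recovered from the steps of the values. Rbpms2 was at 158, 167, 136 and 213 FPKM in wild-type replicates 1 to 4 and at 38.4, 58.3, 31.0 and 42.5 FPKM in knockout replicates 1 to 4, so reads from the gene were fewer in every knockout library but not absent. Of 11 oocyte markers, all were detected in all wild-type libraries, Zp3 was at 0 in knockout replicates 1 and 2, and Gdf9 was under 1 FPKM in all knockout libraries. Their summed level was 5401 to 8261 FPKM in wild type and 1832 to 2988 FPKM in knockout, with 8 of the 11 called lower and 3, Ddx4, Dazl and Sycp3, called higher. Summed markers of other cells were higher in some libraries than in others. Pregranulosa markers (8 genes) ran from 1.92 to 44.5 FPKM in wild type and from 8.40 to 279.8 FPKM in knockout, and stromal markers (8 genes) from 3.45 to 76.2 and from 8.02 to 324.8 FPKM. Immune markers (7 genes) were at 0.126 to 16.6 FPKM in wild type and at 16.1 to 305.8 FPKM in knockout, endothelial markers (6 genes) at 1.04 to 2.66 and 3.03 to 117.9 FPKM, and erythroid markers (6 genes) at 11.9 to 5354 and 99.6 to 3212 FPKM. Immediate-early and heat-shock genes (10 genes) summed to 50.9 to 272.0 FPKM in wild type and 53.9 to 1718 FPKM in knockout. Wild-type replicate 3 and knockout replicates 2 and 3 were the libraries richest in stromal and pregranulosa markers. Results of the 9 genes are given without these 3 where their call or sign changed. For the named genes of the pathway lists, calls lost without the 3 are given. These 3 libraries are called rich in somatic markers below for those markers only. Knockout replicate 1, with endothelial markers at 117.9 FPKM, and wild-type replicate 1, with erythroid markers at 4211 FPKM, were kept. Leaving out the 3 therefore does not remove all markers of other cells. In tubes of several cells, fewer cells of a type and less RNA per cell cannot be told apart.

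Short 3′ UTR elements were searched in the 9 genes because several of them encode proteins that bind such elements. The Pumilio motif TGTANATA, where N is any base, was searched on the sense strand of 1 GENCODE M21 transcript per gene and was held by 27.0% of 10642 3′ UTRs of tested genes. Of the 9 genes, 5 held a match and 4 did not, and the 3′ UTR of Elavl2 (2477 bases) held 3, that of Fmr1 (2288 bases) 2, that of Igf2bp2 (1784 bases) 1, that of Msi2 (5310 bases) 3 and that of Pum2 itself (2841 bases) 2. Longer 3′ UTRs hold a match more often. Among 3′ UTRs within 20% of the length of the gene's own, the share holding one ran from 28.3% for Fxr1 to 66.9% for Celf1, with 40.0% for Elavl2, 37.3% for Fmr1, 31.2% for Igf2bp2, 61.5% for Msi2 and 45.6% for Pum2, so 5 of 9 is not read as more than such lengths give. The matches of the 3 genes whose groups of libraries did not overlap, and those of Pum2, are printed 5′ to 3′ in the sense of the mRNA, from GRCm38 coordinates, with the motif in capitals.
Elavl2, chr4:91251942-91251971, minus strand: gctttgtgtgaTGTAAATAagaccttgtgt
Elavl2, chr4:91251734-91251763, minus strand: ctaattctgtcTGTAGATAgtctagcttca
Elavl2, chr4:91251069-91251098, minus strand: aataaaatacaTGTATATAtttaaaaaaaa
Fmr1, chrX:68717288-68717317, plus strand: gtttaaaatacTGTAGATAattaaccaagg
Fmr1, chrX:68717349-68717378, plus strand: gcaatattctcTGTACATAttagcgacaac
Igf2bp2, chr16:22060384-22060413, minus strand: ctgtacatgtaTGTACATAtcagaagggga
Pum2, chr12:8750154-8750183, plus strand: gtttatagagaTGTATATAgaattatagtt
Pum2, chr12:8750407-8750436, plus strand: atgtacagaatTGTATATActtataattgt
A match is a description of the letters and not a binding site, and both genes that rose and genes that fell held one.

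The AU-rich nonamer TTATTTATT, the kind of element that ELAVL proteins bind, was searched in the same way. It was held by 7.99% of all 3′ UTRs searched. Among 3′ UTRs within 20% of the gene's own length, the share was 17.85% for Elavl1 and 11.18% for Elavl2. Holding 0 is therefore usual at such lengths, and no contrast between the 2 genes is read. Msi2, Igf2bp2, Igf2bp3, Pum2 and Celf1 also held 0. The 3′ UTR of Elavl1 (4218 bases) held 8 matches close together, most of them overlapping, between bases 3794 and 3848 of it, the first of which is printed with the nonamer in capitals, Fmr1 and Fxr1 held 1 each, and Elavl2 held 0.
Elavl1, chr8:4285787-4285816, minus strand: gtcatgaaaaTTATTTATTtatttatttat
Pairs of CAC trinucleotides 3 to 12 bases apart, the arrangement bound by the RBPMS proteins, were common, being held by 76.2% of all 3′ UTRs and by 96.5% of those of about the length of that of Elavl2. Msi2 held 17 and Celf1 16, Elavl1 held 5, Igf2bp2 held 4, Fmr1 held 3, Pum2 held 2 and Fxr1 and Igf2bp3 held 1 each. The 3′ UTR of Elavl2 held 0, which says only that these letters are not in this stretch.

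Upstream of the start sites, the letters CACGTG, an E-box that reads the same on both strands, were looked up after the expression values had been seen. In the 250 bases before a RefSeq start (GRCm38.p6), 6.02% of 32851 windows held it. It was present before every listed start of Fmr1, Msi2 and Igf2bp3 and before none of the listed starts of the other 6 genes. The letters hold a CpG. The farthest upstream windows of Fmr1, Msi2 and Igf2bp3 held 21, 29 and 21 CpG, those of the other 6 genes 10 to 40, and the median of all windows was 6. No share among windows of like CpG content was taken, so no excess is read from these 3 genes. The match of Fmr1, printed with the hexamer in capitals, began 11 bases before the start site.
Fmr1, chrX:68678511-68678540, plus strand: ggggaggggctgcgcgggtCACGTGacatc

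Among the 9 genes, Fmr1 and Msi2 rose and Elavl2 and Igf2bp2 fell in knockout oocytes, while Elavl1, Fxr1, Igf2bp3, Pum2 and Celf1 were not called. The 4 calls make 44.4% of the 9 genes, beside 43.4% of all tested genes called in either direction, 17.7% higher and 25.6% lower. Groups of libraries that did not overlap were seen for 3 of the 9, beside 39.9% of all tested genes. Fmr1 was the 1 gene with all knockout libraries above (15.9% of all tested genes), and Elavl2 and Igf2bp2 were the 2 with all below (24% of all tested genes). The number of calls among these genes was thus close to that of genes in general, and the median log2 fold change was -0.03 over the 9 and -0.12 over all tested genes.

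**Figure D1:**
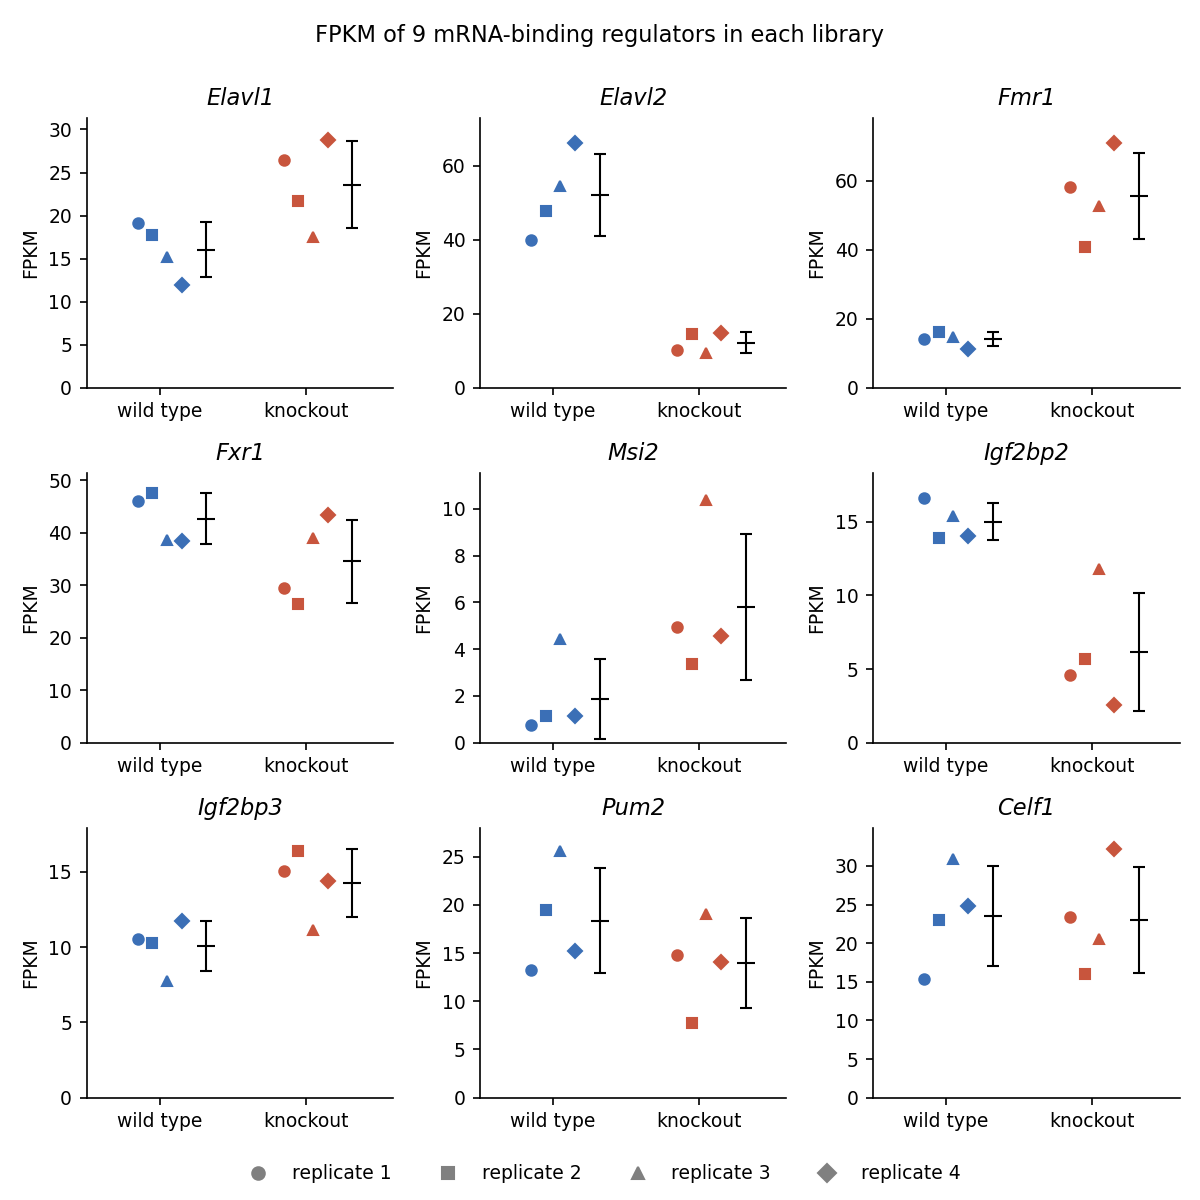
FPKM of the 9 genes in each library (vertical axis, linear from 0), by genotype, with the marker shape giving the replicate number and the bar the mean ± SD of 4 libraries. Elavl2 and Igf2bp2 were lower and Fmr1 higher in all 4 knockout libraries than in any wild-type library, and the libraries of the other 6 genes overlapped.

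The ELAVL family changed its leading gene. Elavl2 (chr4:91250763-91400785, GRCm38) was at 39.8, 47.6, 54.6 and 66.0 FPKM in wild-type replicates 1 to 4 and at 10.1, 14.5, 9.33 and 14.7 FPKM in knockout replicates 1 to 4. All knockout libraries lay below all wild-type libraries. Elavl2 fell from 52.0 ± 11.1 to 12.2 ± 2.84 FPKM (SD, n = 4 each), a mean 4.27 times higher in wild type. Its log2 fold change was -2.01 (SE 0.23, 95% interval -2.52 to -1.50, limma adjusted p = 8.21e-05).

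Elavl1 (chr8:4285382-4325413), the broadly expressed HuR gene, was at 19.2, 17.8, 15.1 and 11.9 FPKM in wild type and at 26.4, 21.7, 17.5 and 28.8 FPKM in knockout. Knockout replicate 3 lay within the wild-type range and the other 3 above it. The means were 16.0 ± 3.18 and 23.6 ± 5.04 FPKM (SD, n = 4 each), with a log2 fold change of 0.53 (SE 0.23, limma adjusted p = 0.0875). Without the 3 libraries rich in somatic markers the log2 fold change was 0.75 and passed the threshold (limma adjusted p = 0.0497). Without knockout replicate 3 alone it also passed, at 0.66 (limma adjusted p = 0.0404). Under the other 21 of 23 settings Elavl1 was not called. Its log2 fold change was 0.23 after GC correction (limma adjusted p = 0.410) and 0.40 without wild-type replicate 4 (limma adjusted p = 0.231).

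Within each library the order of the pair turned over. The ratio of Elavl2 to Elavl1 FPKM was 2.08, 2.68, 3.60 and 5.53 in wild type and 0.383, 0.668, 0.535 and 0.512 in knockout. On the log2(FPKM + 1) scale the ratio was 1.64 ± 0.58 in wild type and -0.90 ± 0.31 in knockout (SD, n = 4 each), a difference of -2.54 (exact two-sided permutation test, p = 0.0286, adjusted 0.0357 over 5 pairs). With 4 libraries against 4, a p of 0.0286 is the smallest this test can give. The 2 genes thus differed by unequal amounts between the genotypes. The FPKM ratio does not depend on how a library is scaled, whereas the added 1 makes the tested ratio depend on it to some degree, and other scalings were not run for the pairs.

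Elavl3 and Elavl4, the neuronal members, were low. Elavl4 was at 0.109, 0, 0.264 and 0 FPKM in wild type and at 1.65, 0.651, 2.59 and 4.41 FPKM in knockout, from 19 reads over the wild-type libraries and 548 over the knockout libraries. It did not pass the filter. With no filter on low values its log2 fold change was 1.48 (limma adjusted p = 0.0157). Summed over the 4 genes, ELAVL expression was 68.8 ± 8.07 FPKM in wild type and 38.4 ± 7.44 FPKM in knockout, of which Elavl2 made 74.9% ± 7.25 and 31.8% ± 5.40 and Elavl1 23.9% ± 7.31 and 61.3% ± 4.85 (SD, n = 4 each).

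The fragile X family moved the other way, with the gene that was low in wild type becoming the leading one. Fmr1 (chrX:68678541-68717963) was at 14.2, 16.1, 14.6 and 11.3 FPKM in wild-type replicates 1 to 4 and at 58.3, 40.9, 52.8 and 71.0 FPKM in knockout replicates 1 to 4. All knockout libraries lay above all wild-type libraries. Fmr1 rose from 14.1 ± 1.99 to 55.7 ± 12.5 FPKM (SD, n = 4 each), a mean 3.97 times higher in knockout. The log2 fold change was 1.90 (SE 0.22, 95% interval 1.42 to 2.37, limma adjusted p = 7.6e-05), the highest of the 9 genes, and lay at the 95.7th percentile of all tested genes.

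Fxr1 (chr3:34019943-34070322), its autosomal relative, was at 46.1, 47.5, 38.6 and 38.5 FPKM in wild type and at 29.6, 26.5, 39.0 and 43.4 FPKM in knockout. Knockout replicates 1 and 2 were below the wild-type range and replicates 3 and 4 within it. The log2 fold change was -0.32 (SE 0.21, 95% interval -0.77 to 0.14, limma adjusted p = 0.236). After a correction for the GC content of the exons it was -1.05 (limma adjusted p = 0.00126).

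Fxr2, the third member, was at 13.5, 12.9, 29.2 and 30.1 FPKM in wild type and at 13.7, 11.5, 12.2 and 10.5 FPKM in knockout, and was not called (log2 fold change -0.69, limma adjusted p = 0.0887). Fmr1 therefore changed against both relatives. The log2 ratio of Fmr1 to Fxr1 was -1.54 ± 0.15 in wild type and 0.67 ± 0.22 in knockout (SD, n = 4 each), a difference of 2.21 (exact two-sided permutation test, p = 0.0286, adjusted 0.0357). The corresponding ratio of Fmr1 to Fxr2 was -0.48 ± 0.79 and 2.11 ± 0.38 (SD, n = 4 each), a difference of 2.59 with the same exact permutation p. After GC correction that difference was 1.24 (exact permutation test, adjusted p = 0.0476). Fmr1 made 18.0% ± 2.91 of the summed FPKM of the family in wild type and 54.2% ± 3.40 in knockout, while that sum was 78.1 ± 3.77 and 102 ± 18.8 FPKM (SD, n = 4 each).

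**Figure D2:**
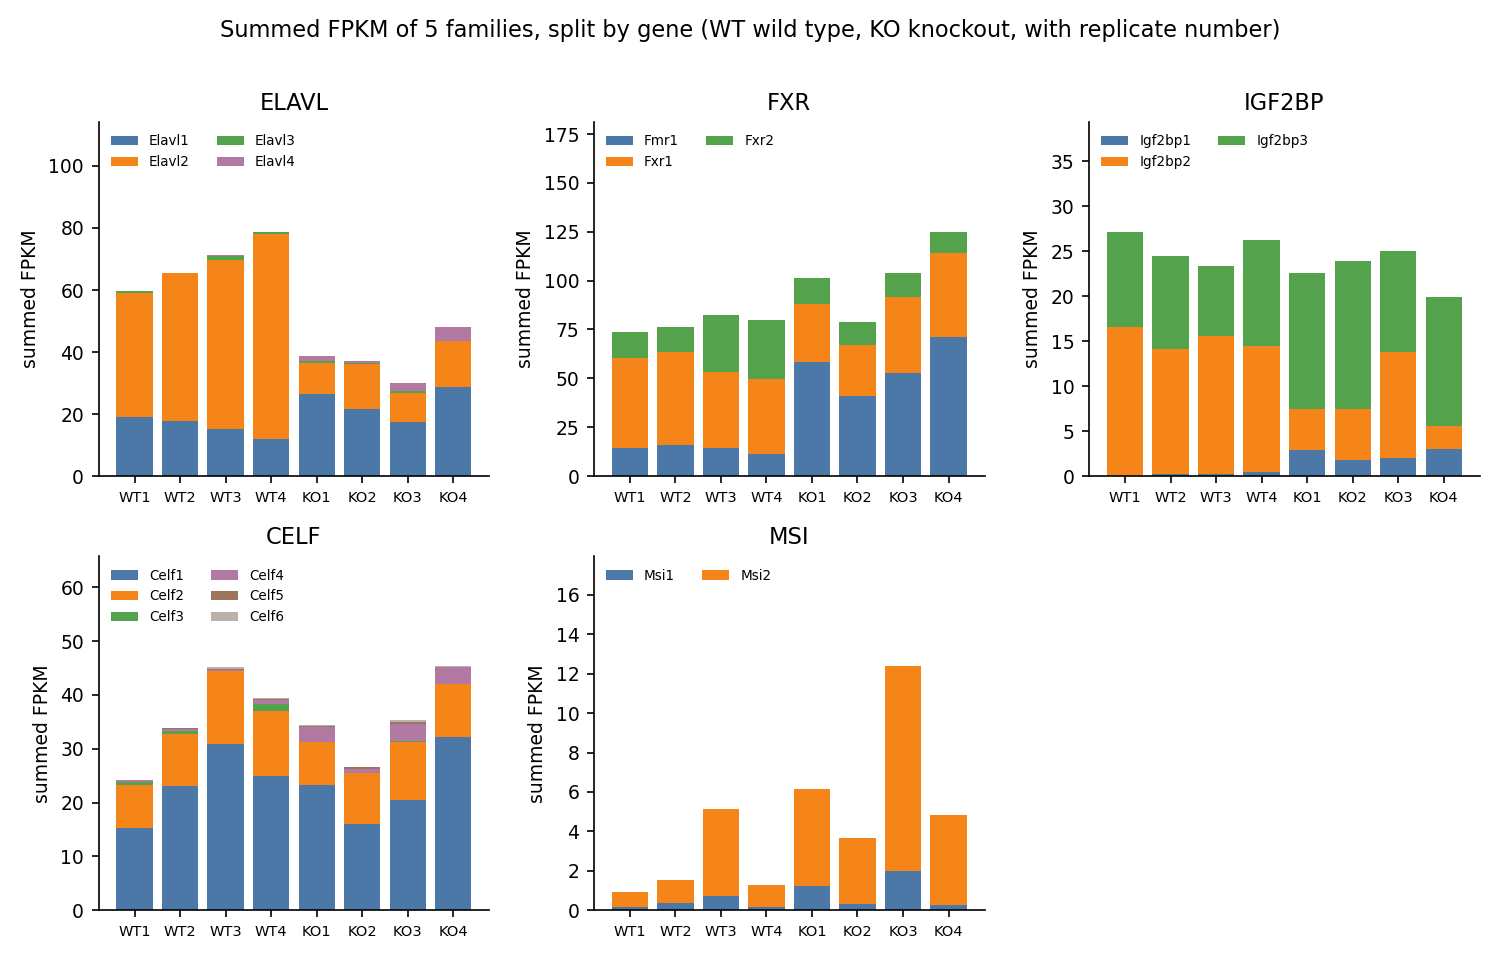
Summed FPKM of 5 RNA-binding protein families (vertical axis, linear from 0) in each library, divided by gene, with WT for wild type and KO for knockout and the replicate number. Elavl2 filled most of the ELAVL bar in wild type and Elavl1 in knockout, Fmr1 widened in the FXR bar, and Igf2bp3 took the larger share of the IGF2BP bar in knockout replicates 1, 2 and 4.

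In the IGF2BP family the summed level differed little while its makeup shifted. Igf2bp2 (chr16:22059009-22163299), the member that persists in adult tissues, was at 16.6, 13.9, 15.4 and 14.1 FPKM in wild type and at 4.61, 5.66, 11.8 and 2.56 FPKM in knockout. Wild-type libraries were close together, all knockout libraries lay below them, and knockout replicate 3, the library with the highest pregranulosa, stromal and immune markers, was nearest. Igf2bp2 fell from 15.0 ± 1.25 to 6.16 ± 3.99 FPKM (SD, n = 4 each), with a log2 fold change of -1.31 (SE 0.35, limma adjusted p = 0.0110). Without the 3 libraries rich in somatic markers the log2 fold change was -1.82. Leaving out 1 of the 3 at a time gave -1.65 (knockout replicate 3), -1.33 (knockout replicate 2) and -1.30 (wild-type replicate 3). The part of the markers in the difference was not tested.

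Igf2bp3 (chr6:49085223-49214957), an oncofetal member, was at 10.5, 10.3, 7.72 and 11.7 FPKM in wild type and at 15.1, 16.4, 11.1 and 14.4 FPKM in knockout. Only knockout replicate 3 fell within the wild-type range. The means were 10.1 ± 1.68 and 14.3 ± 2.24 FPKM (SD, n = 4 each), and the log2 fold change of 0.46 (SE 0.22, limma adjusted p = 0.113) was not called. Set against Igf2bp2 in the same library, the log2 ratio was -0.54 ± 0.29 in wild type and 1.24 ± 0.93 in knockout (SD, n = 4 each). The difference of 1.78 had an exact two-sided permutation p of 0.0286, adjusted 0.0357, but the ratio of knockout replicate 3 stood apart from the others of its group, at -0.08. After GC correction the difference was 1.36 and no longer passed (exact permutation test, adjusted p = 0.107), and it also did not pass without any 1 of the 4 wild-type libraries (adjusted p = 0.0714 in each).

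Igf2bp1, the remaining member and also oncofetal, was near 0 in wild type, at 0, 0.198, 0.208 and 0.434 FPKM, and at 2.91, 1.83, 2.02 and 2.96 FPKM in knockout. These are 71 reads over the wild-type libraries and 1093 over the knockout libraries, and the groups did not overlap. Igf2bp1 passed the filter only through the 4 knockout libraries, where it is high, so its call under the filter is not used. With no filter on low values, over 18645 genes, its log2 fold change was 1.50 on the log2(FPKM + 1) scale (limma adjusted p = 0.00245). The added 1 makes that value smaller than the change in level, since the mean FPKM was 11.6 times higher in knockout. The 3 genes summed to 25.3 ± 1.71 FPKM in wild type and 22.9 ± 2.17 FPKM in knockout, and Igf2bp2 made 59.5% ± 5.34 and 26.1% ± 14.9 of that (SD, n = 4 each).

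Pum2, the Pumilio gene of the 9 (chr12:8674134-8752581), was at 13.2, 19.5, 25.6 and 15.2 FPKM in wild type and at 14.9, 7.78, 19.1 and 14.1 FPKM in knockout, and the groups overlapped. Its log2 fold change was -0.39 (SE 0.30, 95% interval -1.05 to 0.26, limma adjusted p = 0.306), and after GC correction -0.93 (limma adjusted p = 0.0266).

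Celf1 (chr2:90940382-91019497), which binds GU-rich elements and recruits deadenylases, was at 15.3, 23.0, 30.9 and 24.9 FPKM in wild type and at 23.3, 16.0, 20.5 and 32.1 FPKM in knockout. Both groups covered nearly the same range. The log2 fold change was -0.03 (SE 0.27, 95% interval -0.63 to 0.56, limma adjusted p = 0.932), so its interval held changes in either direction. Median-of-ratios scaling moved the median of all genes from -0.12 to about 0, and quantile scaling moved it to 0.04. With the first of these Celf1 was at 0.11 and with the second at -0.03, so no direction can be given for it, while the other 8 genes kept theirs under both. Celf2 was at 10.9 ± 2.51 and 9.50 ± 1.20 FPKM (SD, n = 4 each) and was not called in the main fit. Under 2 of 23 settings, GC correction without and with the block, Celf2 was called lower. Its log2 fold change there was -0.71 (lowest limma adjusted p = 0.0425). The log2 ratio of Celf1 to Celf2 differed by 0.13 between genotypes, with overlapping groups (exact two-sided permutation test, p = 0.514).

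Msi2 (chr11:88339382-88718513), the Musashi gene of the 9, had the lowest mean of them in both genotypes. It was at 0.773, 1.14, 4.42 and 1.13 FPKM in wild type and at 4.94, 3.35, 10.4 and 4.57 FPKM in knockout. Wild-type replicate 3 lay within the knockout range, and that library and knockout replicate 3 had the highest Msi2 of their groups and also the highest pregranulosa and stromal marker sums of their groups. Msi2 rose from 1.87 ± 1.71 to 5.81 ± 3.12 FPKM (SD, n = 4 each), with a log2 fold change of 1.31 (SE 0.42, limma adjusted p = 0.0275). The exact two-sided permutation test of the same values gave p = 0.0571.

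The Msi2 call depended on single libraries. It was lost without wild-type replicate 1, 2 or 4 (limma adjusted p = 0.0768, 0.0717 and 0.0740) and without knockout replicate 3 (adjusted p = 0.0617). It was also lost with no filter on low values (adjusted p = 0.0696) and after GC correction (adjusted p = 0.176). Without the 3 libraries rich in somatic markers together, the log2 fold change was 1.52 (limma adjusted p = 0.00737). Msi1 was under 1 FPKM in all wild-type libraries and was not tested under the filter.

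**Figure D3:**
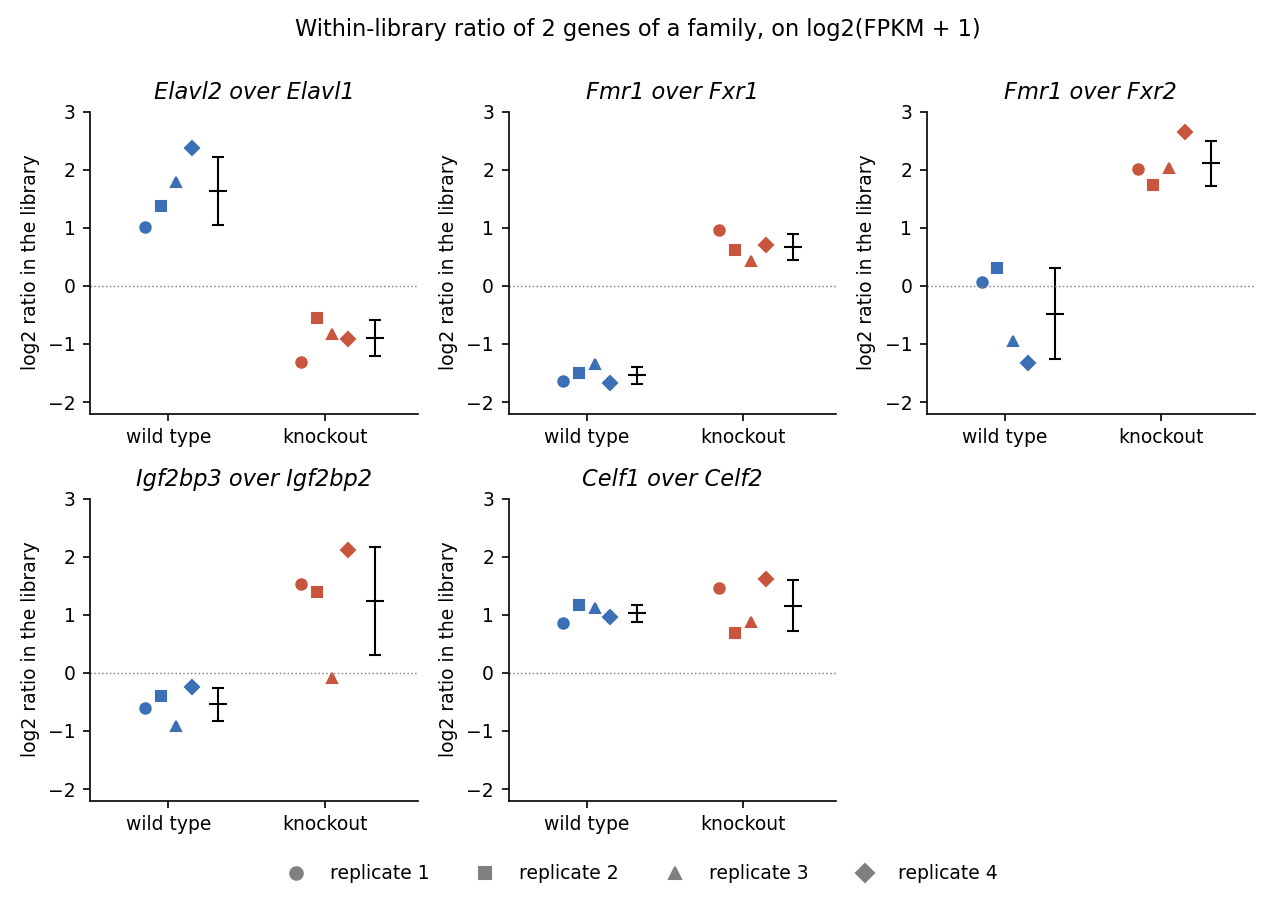
Difference of log2(FPKM + 1) between 2 genes of a family within each library (vertical axis), by genotype, with the bar at the mean ± SD of 4 libraries and a dotted line where both genes were at the same level. Wild-type and knockout libraries did not overlap for 4 of the 5 pairs and overlapped for Celf1 over Celf2. Each of those 4 pairs holds Elavl2, Fmr1 or Igf2bp2, whose own groups did not overlap, as for 39.9% of single tested genes. No share over other gene pairs was taken, so no excess is read from the 4.

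Placed in order of their level per length, the 9 genes changed rank. In wild type the order by mean FPKM was Elavl2, Fxr1, Celf1, Pum2, Elavl1, Igf2bp2, Fmr1, Igf2bp3 and Msi2. Among the 8 steps of that order, 6 joined genes whose libraries overlapped, and only Fxr1 over Celf1 and Igf2bp3 over Msi2 were clear of overlap. In knockout the order was Fmr1, Fxr1, Elavl1, Celf1, Igf2bp3, Pum2, Elavl2, Igf2bp2 and Msi2, and every neighbour overlapped the next. Fmr1 moved from the seventh place to the first and Elavl2 from the first to the seventh.

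Base composition moved with the change of genes in general, and its values stand beside those of the 9. With the tested genes ranked by exonic GC content and cut into 10 equal groups, log2 fold changes had a median of 0.52 in the lowest group and of -0.89 in the highest. Fmr1, Fxr1 and Elavl2, at 39.2%, 39.4% and 38.5% GC, were all in the lowest group, so Elavl2 lay 2.53 below the median of genes of its composition and Fmr1 1.37 above it. After GC correction Fmr1 had a log2 fold change of 1.15 (limma adjusted p = 0.000728), Elavl2 -2.81 (adjusted p = 2.17e-05) and Igf2bp2 -1.18 (adjusted p = 0.0208). Of the 9 genes, 1 was then called higher, Fmr1, and 4 lower, with Fxr1 and Pum2 joining Elavl2 and Igf2bp2. Over the 11220 genes of that fit, 1667 were called higher and 2648 lower. The direction of the called genes was therefore the same with and without this correction, while Fxr1, Pum2 and Msi2 changed their side of the threshold.

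**Figure D4:**
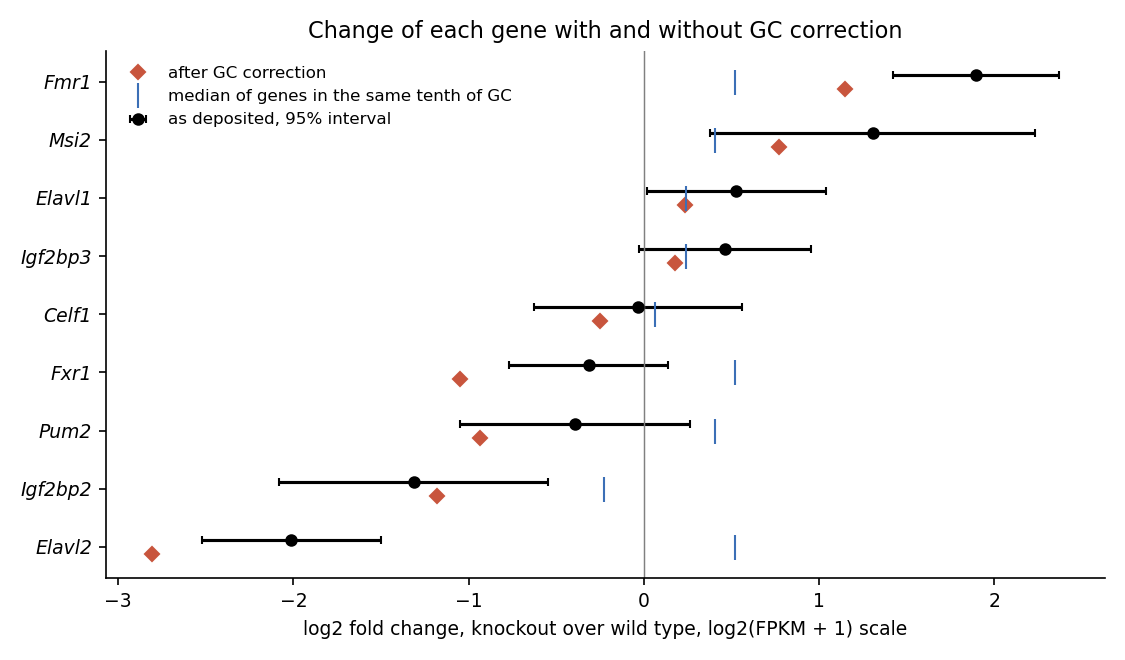
Log2 fold change of each of the 9 genes, knockout over wild type on the log2(FPKM + 1) scale (horizontal axis), with the 95% interval as a bar (black), the value after GC correction (red diamond) and the median of genes in the same of 10 GC groups (blue tick). Elavl2 was at -2.01 and -2.81 without and with correction, and Fmr1 at 1.90 and 1.15.

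Of 10 relatives of the 9 genes in the same families, 3 passed the filter, Igf2bp1 (through its knockout libraries alone) and Fxr2 and Celf2, which were not called. No count of calls is read from these 3. The other 7, Elavl3, Elavl4, Msi1, Celf3, Celf4, Celf5 and Celf6, had too few libraries at 1 FPKM or more. Celf4, a neuronal member of its family, was at 0.447 ± 0.290 FPKM in wild type and 2.52 ± 1.20 FPKM in knockout (SD, n = 4 each), with overlapping groups, and its log2 fold change with no filter was 1.22 (limma adjusted p = 0.0359). Celf3 and Elavl3 were lower in knockout, from 0.547 to 0.045 FPKM and from 0.703 to 0.335 FPKM. With no filter neither was called (log2 fold change -0.52 and -0.34, limma adjusted p = 0.0877 and 0.280). Msi1, Celf5 and Celf6 were at 0.46, 0.12 and 0.10 in that fit and were not called.

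RNA-binding genes that work on the same pathways were taken as 6 lists of 45 genes, all of which passed the filter. Of these, 9 were called higher, 8 lower and 28 were not called, which is 37.8% called beside 43.4% of all tested genes, and their median log2 fold change was 0.21. The split of higher against lower depended on the scaling, being 13 against 6 with median-of-ratios scaling, 15 against 7 with quantile scaling and 3 against 10 after GC correction. Over all tested genes the split was 1991 against 2880 in the main fit and moved too. It was 2312 against 2506 with median-of-ratios scaling, 2503 against 2511 with quantile scaling and 1667 against 2648 after GC correction.

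Among 8 other binders of AU-rich elements, 1 rose and 2 fell. Tial1, a translational repressor of stress granules, rose from 7.88 ± 1.99 to 19.6 ± 3.35 FPKM (SD, n = 4 each; log2 fold change 1.23, limma adjusted p = 0.00197). With GC correction and the replicate block together the Tial1 value was 0.63 and the call was lost (limma adjusted p = 0.0697). Zfp36l2, which recruits deadenylases to AU-rich mRNAs, fell from 28.3 ± 6.53 to 7.33 ± 5.65 FPKM (log2 fold change -2.06, limma adjusted p = 0.00352). Khsrp, a decay factor, fell with a log2 fold change of -0.99 (limma adjusted p = 0.0214), and that call was lost under 5 of 23 settings, among them GC correction (-0.46) and leaving out wild-type replicate 3 or 4 or knockout replicate 4.

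Among 9 partners of FMRP and of stress granules, G3bp2 had the largest change. This granule scaffold gene was at 199, 174, 141 and 179.9 FPKM in wild type and at 22.8, 40.4, 42.2 and 39.9 FPKM in knockout, with no overlap. It fell by 2.25 on the log2 scale (SE 0.22, limma adjusted p = 3.41e-05). Cyfip1, which links FMRP to the cap-binding factor, also fell (6.98 ± 0.927 to 3.08 ± 1.52 FPKM, limma adjusted p = 0.0207). The Cyfip1 call was lost without wild-type replicate 1 or 2 (limma adjusted p = 0.0544 and 0.0587). Nufip1, a nuclear FMRP partner, rose (6.77 ± 0.989 to 16.7 ± 2.46 FPKM, limma adjusted p = 0.00143).

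Among 5 partners of the IGF2BP complex, Ybx3, a cold-shock domain protein gene, fell from 51.1 ± 11.1 to 15.5 ± 7.79 FPKM (SD, n = 4 each; log2 fold change -1.73, limma adjusted p = 0.000965). Syncrip rose from 6.33 ± 1.71 to 14.3 ± 3.56 FPKM (limma adjusted p = 0.00877), a call lost under 3 of 23 settings, among them GC correction (log2 fold change 0.17 in place of 1.07). Another was leaving out the 3 libraries rich in somatic markers (log2 fold change 0.89, limma adjusted p = 0.0507).

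Among 6 readers of the m6A mark, Hnrnpa2b1 rose from 176 ± 12.3 to 291 ± 33.0 FPKM (SD, n = 4 each; limma adjusted p = 0.00364). Ythdf2, which brings m6A-marked mRNAs to decay, rose with a log2 fold change of 0.58 (limma adjusted p = 0.0333). Ythdf1 fell by 0.86 on the log2 scale (limma adjusted p = 0.0332). After GC correction, without and with the replicate block, Hnrnpa2b1 was at a log2 fold change of 0.29 in place of 0.71 and was not called (limma adjusted p = 0.137 and 0.173). The Ythdf2 and Ythdf1 calls were lost under 7 and 8 of 23 settings. For Ythdf1 these included leaving out the 3 libraries rich in somatic markers (limma adjusted p = 0.0685).

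Among 8 regulators of splicing and stability, Mbnl3 rose (2.19 ± 1.86 to 9.30 ± 4.27 FPKM, limma adjusted p = 0.00787), Khdrbs1 (Sam68) rose with a log2 fold change of 0.55 (limma adjusted p = 0.0429) and Rbfox2 fell (9.11 ± 1.91 to 4.07 ± 1.51 FPKM, limma adjusted p = 0.0129). The Khdrbs1 call was lost under 13 of 23 settings, the Mbnl3 call after GC correction (limma adjusted p = 0.0853) and the Rbfox2 call without wild-type replicate 2 (limma adjusted p = 0.0508). For Khdrbs1 the settings included leaving out the 3 libraries rich in somatic markers (limma adjusted p = 0.0931).

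Among 9 transport factors and stem-loop binders, Cirbp, the cold-inducible RNA-binding protein gene, was at 138, 92.9, 101.6 and 82.4 FPKM in wild type and at 800.5, 564, 590.3 and 984 FPKM in knockout. All knockout libraries were higher, and the log2 fold change was 2.80 (SE 0.23, limma adjusted p = 9.21e-06). Pura, a single-stranded nucleic acid binder of transport granules, rose with a log2 fold change of 1.11 (limma adjusted p = 0.0219) and overlapping groups. The Pura call was lost under 4 of 23 settings, GC correction without and with the block (0.64) and leaving out wild-type replicate 1 or 2. Larp1, which binds mRNAs with a 5′ terminal oligopyrimidine tract, fell from 11.7 ± 6.15 to 4.85 ± 0.917 FPKM (limma adjusted p = 0.0386), a call lost under 12 of 23 settings. These included leaving out the 3 libraries rich in somatic markers (limma adjusted p = 0.106).

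The patterns of Fmr1 and Elavl2, the called genes of the 9 with the largest rise and fall, were shared by many genes over the 8 libraries. Pearson's r of log2(FPKM + 1) with Fmr1 was above 0.95 for 361 genes, led by Ccdc152 (0.997), the importin gene Kpna3 (0.997) and the meiotic cohesin gene Smc1b (0.994). For Elavl2 it was above 0.95 for 384 genes, led by the kinesin gene Kif4 (0.997), Ccdc88c (0.997) and the corepressor gene Sin3a (0.996). These values come from libraries that differ by genotype, so any gene with a large change of the same sign scores high. With the genotype means removed, the highest r with Fmr1 were those of Krit1 (0.991), Wdr7 (0.969) and Dph5 (0.966), and with Elavl2 those of Banp (0.977), the m6A demethylase gene Alkbh5 (0.964) and Kif4 (0.957). Wdr7 was lower in knockout (log2 fold change -0.56), and Wdr7 and Dph5 were not called (limma adjusted p = 0.0971 and 0.105). These r are the highest picked from many genes over only 8 libraries, so no link between genes is read from them.

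Within genotypes the 9 genes varied together in part. Over the 8 libraries with genotype means removed, the highest of the 36 correlations was between Msi2 and Pum2 (r = 0.86), followed by Fmr1 and Fxr1 (r = 0.74). The lowest was between Msi2 and Igf2bp3 (r = -0.94), followed by Igf2bp3 and Pum2 (r = -0.83). Replicate 3 of either genotype stood at the end of its group for Msi2, Pum2 and Igf2bp3 in opposite directions, highest for Msi2 and Pum2 and lowest for Igf2bp3, and these were the libraries with the highest pregranulosa and stromal markers of their group. The part of those markers in the correlations was not tested.

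Counting could not keep every gene apart. Exons of Fxr1 overlap those of Dnajc19, those of Igf2bp3 overlap Malsu1 and those of Elavl1 overlap Ccl25, each on the opposite strand, and whether the counting used strand is not given in the sources used here. These 3 genes reached 65.3, 33.1 and 6.27 FPKM at most, so the levels of Fxr1, Igf2bp3 and Elavl1 are less certain than those of Elavl2, Igf2bp2, Msi2, Pum2 and Celf1, whose exons overlap no annotated gene. Exons of Fmr1 overlap 1 predicted gene of the same strand that is not used here.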

How the data were processed

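The values are FPKM per gene and library, in 1 table deposited by the authors. Per the submitters' processing notes, the tools were cutadapt, HISAT2 and HTSeq with GRCm38 (mm10), and of their versions and annotation nothing is known (not given in the sources used here). Symbols matched 21851 of 21959 genes and exon lengths 21902 (GENCODE M21). Values multiplied by length came in whole reads (97.4% to 97.6% of values above 0, within 0.02 reads). These recovered reads served for depth, a check for duplicated libraries (none found) and a limma-voom alternative. Reads are not independent molecules, since amplification used no molecular identifiers.

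The 4 wild-type and 4 knockout libraries were compared on log2(FPKM + 1) with limma 3.58.1 (R 4.3.3), eBayes with trend, genotype the only term, over the 11235 genes at 1 FPKM or more in at least 4 libraries. The pseudocount of 1 understates changes of low genes. Benjamini-Hochberg adjusted p under 0.05 made a call. Exact two-sided permutation tests used all 70 splits. Library totals enter FPKM as deposited. The procedure was tested on simulated data. Alternatives were other pseudocounts, filters, scalings, weights, variance models, GC correction (loess, span 0.5), the replicate block, voom, and left-out libraries, for which the filter was applied again to the libraries kept. Sequences came from GENCODE M21 transcripts and RefSeq promoters with Python 3.11.15.

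The 9 genes, the lists, the markers and the 3 libraries called rich in somatic markers were chosen with earlier results of these data known. Named were the 9 genes, Rbpms2, family relatives, up to 3 called genes of each list by smallest p, and the 3 genes most alike in pattern to the called genes with the largest rise and fall. Some items that this rule names are not reported here. Elavl4, Celf4 and the other relatives under the filter were named after their values were seen.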

Additional observations from a re-analysis of the deposited data

Results flagged for a closer look

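Among 80 groups of 4 libraries examined, 4 had 1 library standing apart from the other 3 by Dixon's criterion at the 95% level, and chance flags about 1 in 20 such groups. Msi2 was at 4.42 FPKM in wild-type replicate 3 and at 0.773 to 1.14 FPKM in the other wild-type libraries. The summed FPKM of Msi1 and Msi2, which is mostly Msi2, was at 5.13 in wild-type replicate 3 and at 0.931 to 1.51 in the others. G3bp2 was at 22.8 FPKM in knockout replicate 1 and at 39.9 to 42.2 FPKM in the other knockout libraries. Ybx3 was at 27.1 FPKM in knockout replicate 3 and at 11.1 to 12.6 FPKM in the other knockout libraries.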

How the results depend on the processing

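Elavl2, Fmr1, Igf2bp2 and Igf2bp3 kept their direction and their side of the threshold under all 23 alternatives. Msi2 lost its call with no filter (log2 fold change 1.31), GC correction (0.77) and GC correction with the block (0.77). Under GC correction, without and with the block, Fxr1 (-1.05) and Pum2 (-0.93) gained a call. Elavl1 gained one without the 3 libraries rich in somatic markers (0.75). Celf1 changed sign with median-of-ratios scaling (0.11), array weights (0.028) and without those 3 libraries (0.39). Leaving out 1 library at a time gave 1.03 to 1.66 for Msi2, 0.40 to 0.66 for Elavl1 and -0.22 to 0.12 for Celf1.

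Of the 9 genes, 1 was called higher with no filter, with the filter at 5 FPKM (which removes Msi2) and with GC correction, without and with the block, and 4 were called lower with GC correction, without and with the block. Leaving out libraries gave 1 to 2 higher and 2 to 2 lower. Over all tested genes, 1886 of 18645 were called higher with no filter and 1617 of 7427 with the filter at 5 FPKM. GC correction gave 1667 higher and 2648 lower of 11220, and 1805 and 2681 with the block. Leaving out 1 library at a time gave 1465 to 1792 higher and 1995 to 3010 lower over all tested genes. Of the family relatives, 3 were called higher with no filter and 0 with the 5 FPKM filter or without the 3 somatic-rich libraries, which put Igf2bp1 under the filter. The 3 were Igf2bp1, Elavl4 and Celf4, all low in wild type. With GC correction, without and with the block, 1 relative, Celf2, was called lower, and leave-outs gave 0 to 1 higher and 0 to 1 lower. No result about the relatives is read from these counts. The 6 lists gave 15 higher with quantile scaling, 14 with array weights and 3 with GC correction, without and with the block, and leave-outs gave 7 to 11 higher and 5 to 9 lower. Over all tested genes, 2503 were called higher with quantile scaling and 2206 with array weights. The cause of these shifts was not tested.

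Of the pair ratios, Fmr1 over Fxr1 was 2.43 and Celf1 over Celf2 was 0.54 without the 3 somatic-rich libraries, where 3 wild-type libraries against 2 allow no p under 0.05. Igf2bp3 over Igf2bp2 was 1.36 with GC correction. Leave-outs gave 1.48 to 2.22 for Igf2bp3 over Igf2bp2 and -0.020 to 0.29 for Celf1 over Celf2.

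The replicate numbers are shared between genotypes. Deviations of libraries of the same number had r = 0.19, 0.02, 0.36 and -0.05 for numbers 1 to 4. Only 1 of the 4 numbers, number 3, matched best with itself, so the numbers were not taken as pairs. With the replicate block, 2113 genes were called higher and 2921 lower, beside 1991 and 2880 without it, and 2 of the 9 genes were called higher and 2 lower in either fit.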
